A study of Mus musculus with 21 samples.

Results

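The 10 genes described here belong to the cyclic AMP and gap junction signalling that holds a fully grown mouse oocyte in prophase of meiosis I. They are the receptors Gpr3 and Gpr12, the G protein gene Gnas, the adenylyl cyclases Adcy3 and Adcy9, the phosphodiesterase Pde3a, the protein kinase A (PKA) genes Prkaca, Prkacb and Prkar1a, and the connexin gene Gja4. They were chosen as a list of named genes and not by a measured value, though with earlier results of these data known. All 10 were found by symbol among the 54232 genes of the count table, and all 10 passed the filter on low counts.

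In an arrested oocyte, a receptor of the Gpr3 family is active without a known hormone and drives adenylyl cyclase through the stimulatory G protein Gs. The cyclic AMP made in this way keeps PKA active, and PKA holds the maturation kinase CDK1 off through its targets Wee2 and Cdc25b. The phosphodiesterase PDE3A degrades cyclic AMP, and it is held back by cyclic GMP that passes from the granulosa cells through gap junctions built on the oocyte side from connexin 37, the product of Gja4. When cyclic GMP falls, PDE3A is released, cyclic AMP drops and the nuclear envelope breaks down.

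Poly(A) RNA was sequenced from 21 libraries, each of 3 oocytes at the germinal vesicle stage. The oocytes came from females of 3 to 4 months that had been primed with gonadotropin or an inhibin antiserum preparation, and each mouse gave 1 or 2 libraries. Every animal carried a loxP-flanked (fl) allele of Kif11, the gene of a spindle kinesin, so no group was free of it. The control was wt/fl without Cre (4 libraries). The same alleles with Spo11-Cre (5 libraries) gave a heterozygous conditional deletion from early prophase. The fl/del group (4 libraries) had a constitutive deletion on the other allele and no Cre, and fl/del with Spo11-Cre (4 libraries) had both. In the fl/fl groups, with Gdf9-Cre (2 libraries) or Zp3-Cre (2 libraries), the deletion was driven by oocyte promoters that act after birth, and these 4 libraries lie outside the 17 that the study's methods describe. The study cultured oocytes in medium with a general phosphodiesterase inhibitor before use, and whether the sequenced oocytes had been in it is not given in the sources used here. The names of the 17 libraries of the Spo11-Cre background begin with a prefix that most of them share with 1 other library of the group. Its meaning is not stated. If it marks the mouse, wt/fl, fl/del and fl/del with Spo11-Cre each hold 2 mice, wt/fl with Spo11-Cre holds 3, and p-values over libraries are too small. They measure the spread between libraries, part of which may be technical.

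Library totals ran from 7205010 to 18454549 counts. Kif11, the deleted gene, followed the labels. It was at 34.5 ± 8.46 CPM (counts per 1000000 counts of the library; SD, n = 4) in wt/fl and at 1.78 ± 0.685 CPM (SD, n = 4) in fl/del with Spo11-Cre, with all other group means in between. The 14 oocyte markers summed to between 25654 and 34685 CPM in every library. The 18 follicle cell markers summed to between 74.2 and 126 CPM, nearly all of it Cyp19a1 and Nr5a2. Without this pair, the other 16 summed to between 3.86 and 20.5 CPM, and 14 of the 18 were under 1 CPM on average, among them Gja1, the connexin of granulosa cells. The highest of these sums, 20.5 CPM, was in an fl/fl library with Gdf9-Cre, and its part in the results below was not tested. In samples of this kind, less RNA per oocyte cannot be told apart from a lower share of the RNA.

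To compare the RNA levels of the arrest genes, the deposited TPM (transcripts per 1000000) was used first. On this per-length scale, counts are divided by the merged length of all annotated exons of a gene. Which transcripts the oocytes held, and their length, was not tested. In wt/fl oocytes Gja4 was by far the highest of the 10 genes, at a level of 1071 ± 152 TPM (SD, n = 4), rank 128 of the 22281 genes above 0. Prkar1a, the regulatory PKA subunit RI alpha, followed at 53.0 ± 3.96 TPM, then Gpr3 at 20.4 ± 4.65 TPM and Pde3a at 10.7 ± 0.915 TPM (SD, n = 4 each). The order of these 4 genes in TPM was the same in 21 of 21 libraries. For Gpr3 and Pde3a it depends on the exonic length, 2734 against 12737 bases. In CPM Pde3a was above Gpr3, at means of 55.6 and 22.6 in wt/fl. Prkaca, the catalytic subunit alpha of PKA, was at 8.26 ± 3.52 TPM and below Pde3a in 19 of 21 libraries, so this neighbouring pair was not separated by the spread.

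The remaining 5 genes were low. Adcy9 was at 1.32 ± 0.890 TPM, Gpr12 at 0.624 ± 0.296 TPM, Prkacb at 0.568 ± 0.326 TPM, Adcy3 at 0.256 ± 0.168 TPM and Gnas at 0.146 ± 0.0575 TPM (SD, n = 4 each). Prkaca exceeded Adcy9 in 21 of 21 libraries, whereas the ranges of each neighbouring pair from Adcy9 downwards overlapped in wt/fl. Gpr12 exceeded Prkacb in 15 of 21 libraries and Adcy3 exceeded Gnas in 10 of 21.

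**Figure D1:**
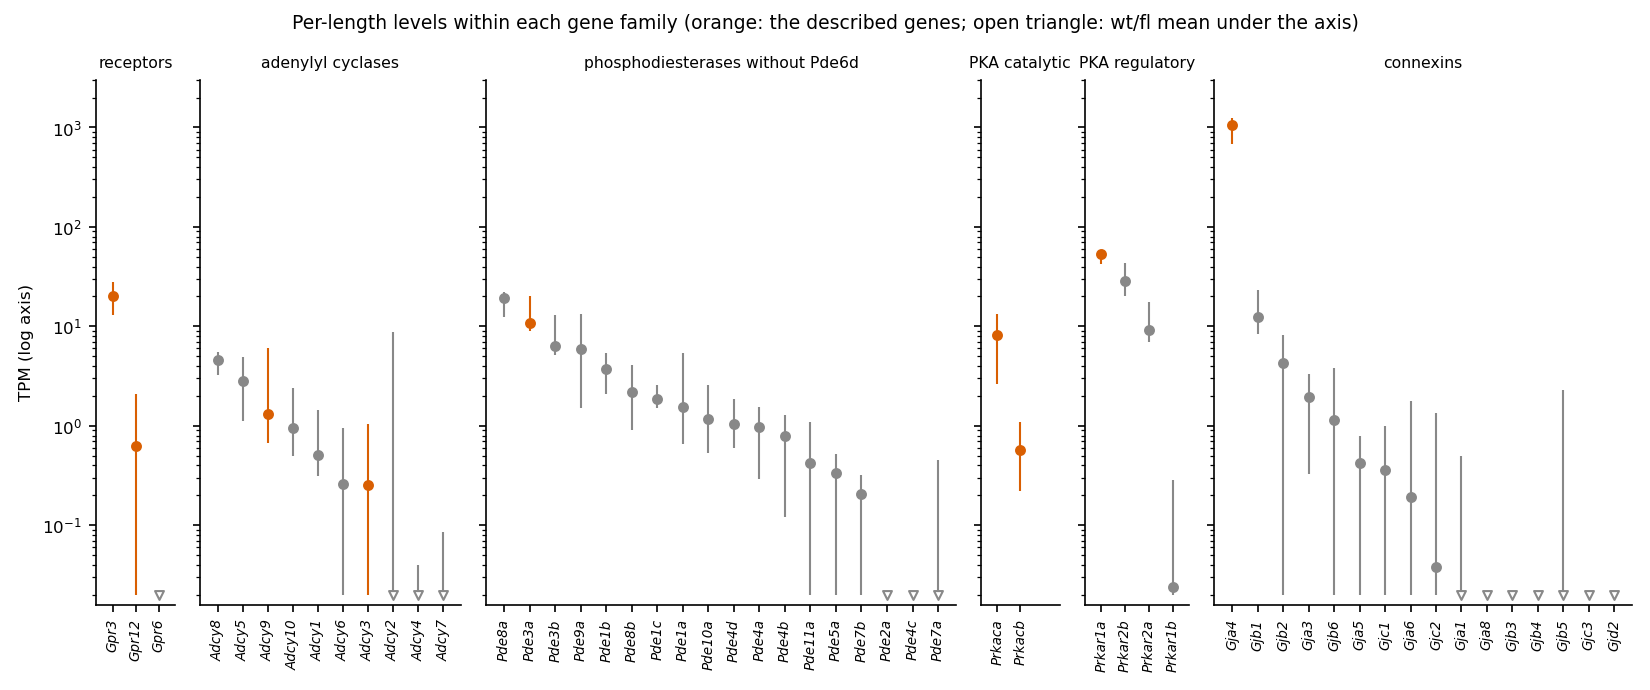
Deposited TPM (log axis) of the genes of 6 families, a panel per family. Points are wt/fl means (n = 4), lines run from the lowest to the highest of the 21 libraries, and lines that touch the bottom and open triangles mark values at or under the axis limit. Gpr3, Prkaca, Prkar1a and Gja4 led their families in TPM. Pde8a stood above Pde3a in the phosphodiesterase panel, which leaves out Pde6d, an order that was reversed in CPM.

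The arrest genes did not all lead their families. Gpr3 made up 96.6 ± 2.54% (SD, n = 4) of the summed TPM of its 3-receptor family in wt/fl and was the highest in 21 of 21 libraries, with Gpr12 as the rest and Gpr6 listed at 0 in all libraries. Gja4 made up 98.1 ± 0.165% of 16 connexins, Prkaca 93.4 ± 3.24% of 2 catalytic PKA subunits and Prkar1a 58.5 ± 1.47% of 4 regulatory subunits, ahead of Prkar2b at 31.5 ± 1.51% and Prkar2a at 10.0 ± 2.58% (SD, n = 4 each).

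Among the cyclases the pattern differed. Adcy8, a calcium-stimulated cyclase, made up 42.9 ± 1.29% and Adcy5 26.4 ± 3.89% of the summed TPM of 10 cyclases in wt/fl, against 12.1 ± 7.35% for Adcy9 and 2.36 ± 1.45% for Adcy3 (SD, n = 4 each). Pde6d, which is named as a phosphodiesterase subunit but encodes a prenyl-binding protein with no catalytic domain, was at 442 ± 32.5 TPM (SD, n = 4) in wt/fl and was left out of the family sum, so the shares that follow hold only without it. Among the 18 other phosphodiesterase genes, Pde8a, which encodes a cyclic AMP enzyme that the general inhibitor used by the study does not block well, made up 34.1 ± 2.73%, Pde3a 19.1 ± 2.30% and its close relative Pde3b 11.4 ± 2.22% (SD, n = 4 each). These shares depend on the exonic length that divides each count, 12737 bases for Pde3a and 4045 for Pde8a. In CPM Pde3a was above Pde8a, at means of 55.6 and 31.7 in wt/fl. Pde2a, also listed at 0, shares most of its exons with another annotated gene on the same strand, and its count is therefore uncertain.

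The study sequenced these libraries to measure Kif11 itself across genotypes. Here the same genotype groups were compared for the arrest genes. edgeR's quasi-likelihood test called 0 of the 10 genes at an adjusted p under 0.05 in any of 7 comparisons. Over all genes, the test called 2.19% in wt/fl Spo11-Cre against wt/fl, 0.0223% in fl/del against wt/fl, 0.197% in fl/del Spo11-Cre against wt/fl and 0.0357% in fl/del Spo11-Cre against wt/fl Spo11-Cre. It called 1.46% for any difference among the 4 genotypes of the Spo11-Cre background, 0.103% for the interaction between the del allele and Spo11-Cre, and 2.79% in fl/fl with Gdf9-Cre or Zp3-Cre against wt/fl. The 0 of 10 is near these shares and is no result about the 10 genes as a list.

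At an unadjusted p under 0.05, 1 of the 10 genes passed in each of the first 3 of these comparisons, 0 in the fourth, 2 for any difference among genotypes, 0 for the interaction and 2 in the fl/fl comparison. Over all genes, 3358, 1906, 2334, 1591, 2855 and 2311 of 22383 passed in the same order, and 3312 of 23225 in the fl/fl comparison. The counts among the 10 are near these and are no result about the list. DESeq2, run as the alternative, called 1, 0, 1, 0, 1, 0 and 1 of the 10 in the same order. These calls were of Gja4 in the Spo11-Cre background and of Pde3a in the fl/fl comparison. Over all genes DESeq2 called 931, 21, 158, 14, 595 and 74 of 22383, and 1075 of 23225 in the fl/fl comparison. The median log2 fold change of the 10 genes was 0.083 with Spo11-Cre on the wt/fl alleles, -0.081 in fl/del, 0.054 in fl/del Spo11-Cre and 0.090 in the fl/fl libraries, each against wt/fl, beside medians of 0.033, 0, 0.012 and -0.033 over all genes tested. The comparisons against wt/fl share its 4 libraries.

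**Figure D2:**
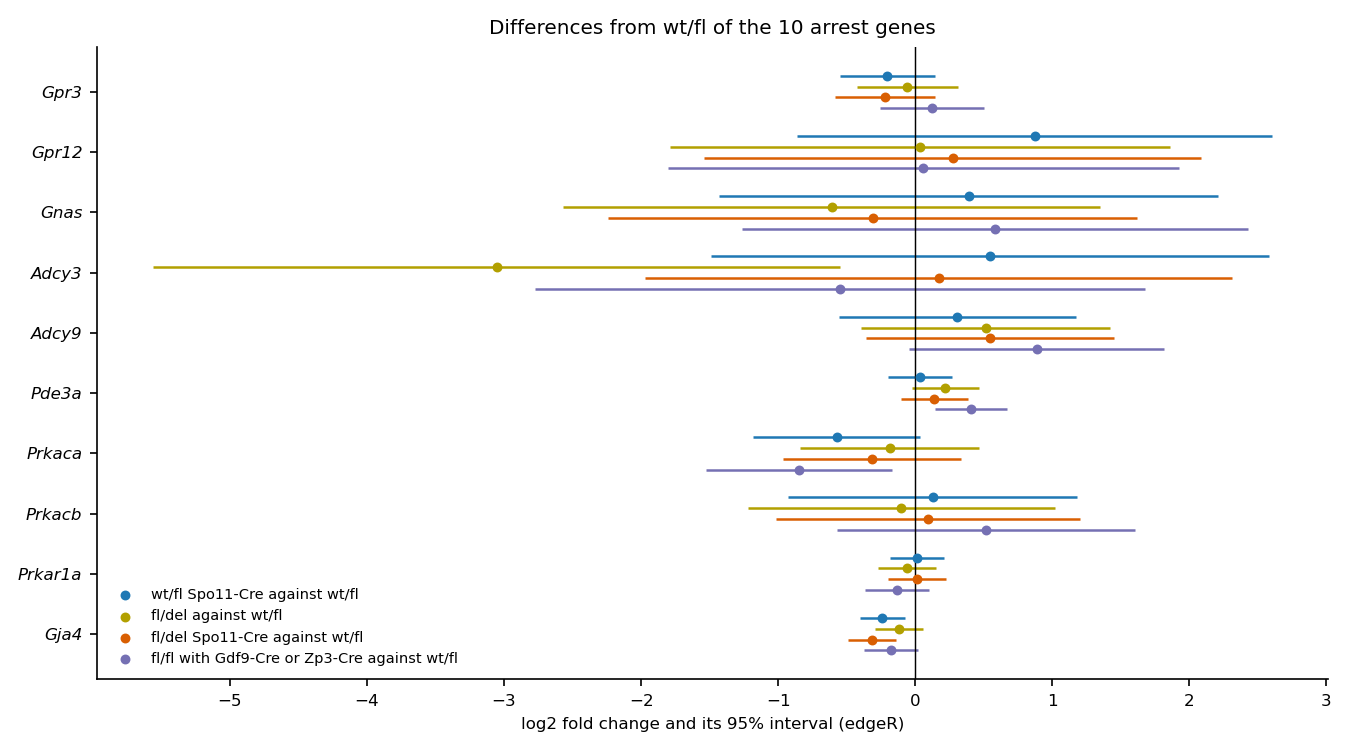
Log2 fold changes against wt/fl (points) with 95% intervals (lines) from edgeR for the 10 arrest genes in 4 comparisons. Intervals were narrow for Prkar1a, Gja4, Pde3a and Gpr3 and wide for Gpr12, Gnas and Adcy3, which had few counts.

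Gpr3 (ENSMUSG00000049649, chr4:133209340-133212536, minus strand, GRCm38) encodes the receptor whose constant signalling maintains arrest in mouse oocytes. It shares 204 of its 2734 exonic bases with the antisense gene Cd164l2, which had 278830 counts over all libraries against 6078 for Gpr3, and without strand the reads of the shared bases cannot be told apart. In wt/fl it was at 24.9, 25.3, 15.2 and 25.2 CPM. With Spo11-Cre on the wt/fl alleles it was at 20.6, 20.9, 18.4, 21.5 and 15.5 CPM. The wt/fl group therefore held the lowest value of the 21 libraries, 15.2 CPM, beside 3 values between 24.9 and 25.3 CPM, and all 5 wt/fl Spo11-Cre libraries lay within its range.

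The other groups overlapped wt/fl in the same way. Gpr3 was at 20.9, 25.5, 22.2 and 17.2 CPM in fl/del, and at 20.6, 16.6, 20.8 and 19.8 CPM with both the del allele and Spo11-Cre. Among the fl/fl libraries Gpr3 gave 28.4 and 18.4 CPM with Gdf9-Cre and 28.2 and 30.2 CPM with Zp3-Cre, so 3 of these 4 were above the wt/fl range, as was 1 fl/del library. The log2 fold change against wt/fl was -0.20 ± 0.17 with Spo11-Cre on the wt/fl alleles, -0.057 ± 0.18 in fl/del, -0.22 ± 0.18 in fl/del Spo11-Cre and 0.12 ± 0.19 in the 4 fl/fl libraries as 1 group (SE). The edgeR adjusted p was 0.640, 0.984, 0.717 and 0.855. The 95% intervals ran from -0.55 to 0.14, from -0.42 to 0.31, from -0.59 to 0.14 and from -0.26 to 0.50, so that a log2 change of 1 in either direction lay outside each of them.

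Gpr12 (ENSMUSG00000041468, chr5:146582398-146585239), a relative of Gpr3 that maintains arrest in rat oocytes, was near the limit of detection. It had between 0 and 34 counts a library and a level of between 0 and 2.19 CPM, with 1 of 21 libraries at 0, which at that library's depth allows up to 0.163 CPM. This limit takes each all-exon count as an independent read. All-exon counts were 1.93 to 1.96 times those of a companion count table in the median gene, so the limit may be too low. The group means of 0.617 to 1.16 CPM all overlapped within 1 SD of their neighbours in order. On the per-length scale the level of Gpr3 was at least 8.999 times that of Gpr12 in every library in which Gpr12 was above 0.

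**Figure D3:**
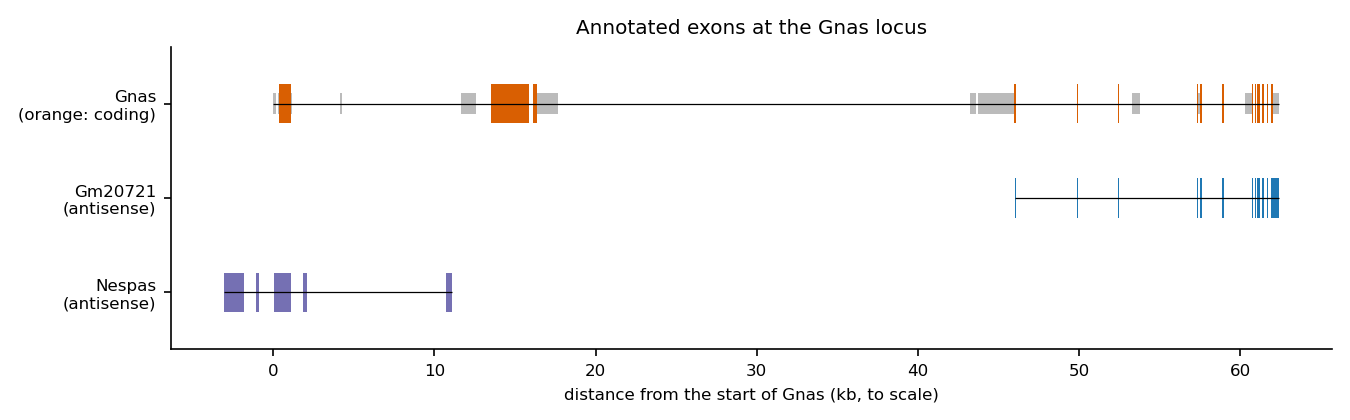
Annotated exons at the Gnas locus, drawn to scale as distance from the start of Gnas in kb, with all annotated transcripts merged. The antisense gene Gm20721 covers nearly all coding exons (orange) of the Gs alpha transcripts at the right end, and Nespas lies at the left end.

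Gnas (ENSMUSG00000027523, chr2:174284320-174346744, plus strand) encodes the alpha subunit of Gs, the step between receptor and cyclase, and its count cannot be read as a level of Gs alpha. Between 0 and 20 counts were recorded a library, or between 0 and 1.58 CPM. The annotation places a further gene model, Gm20721, on the opposite strand, and it shares 1469 exonic bases with Gnas. It covers 96.4% to 97.5% of the coding bases of the 4 Gs alpha transcripts with between 1137 and 1182 coding bases, as the exon map shows. Gm20721 itself had 0 counts in all 21 libraries. The library kit does not mark strand, and how reads over 2 genes were assigned is not given in the sources used here. Whether this overlap set the low count was not tested. Nespas shares a further 988 exonic bases with Gnas and had 125 counts over all libraries. Gnas was not called in any comparison, and 2 of 2 fl/fl libraries with Gdf9-Cre, at 1.58 and 1.197 CPM, were above the wt/fl range of 0.4201 to 0.986 CPM.

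Adcy3 (ENSMUSG00000020654, chr12:4133103-4213525) encodes a cyclase that has been linked to oocyte cyclic AMP. Its counts, given here because they were seen to differ, were 4, 0, 0 and 0 in fl/del and 8, 16, 4 and 6 in wt/fl. The counts of both groups included a 4, and only on the CPM scale did they not overlap, at 0 to 0.256 CPM in fl/del and 0.303 to 1.26 CPM in wt/fl. The widest range was in wt/fl Spo11-Cre, from 0.153 to 2.71 CPM. The 3 libraries at 0 allow up to 0.179, 0.416 and 0.178 CPM, of which the second lies within the wt/fl range. For the reason given for Gpr12, these limits may be too low. The log2 fold change was -3.05 ± 1.25 (SE), which edgeR did not call (adjusted p = 0.576), and over its alternatives the adjusted p ran from 0.211 to 0.926. In fl/del Spo11-Cre, which carries the same del allele, Adcy3 was at 0.711, 0, 1.02 and 1.22 CPM and overlapped wt/fl. Of its exonic bases, 22.1% are shared with the antisense gene Cenpo, which had 46414 counts over all libraries.

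Adcy9 (ENSMUSG00000005580, chr16:4287529-4420498), which shares no exonic base with another gene, was the higher of these cyclases. It was at 1.41 to 5.61 CPM in wt/fl and reached 13.2 CPM in a Zp3-Cre library whose partner was at 2.198 CPM. The group means ran from 2.81 ± 1.93 CPM (SD, n = 4) in wt/fl to 7.70 ± 7.78 CPM (SD, n = 2) with Zp3-Cre, and neighbours in that order overlapped. It was called in no comparison.

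Pde3a (ENSMUSG00000041741, chr6:141249269-141507448, plus strand) encodes the cyclic AMP phosphodiesterase of the oocyte. It shares 741 of its 12737 exonic bases with the antisense gene Gm28523, which had 249 counts over all libraries. In wt/fl it was at 49.5, 54.6, 59.7 and 58.7 CPM, and in wt/fl Spo11-Cre at 51.5, 65.6, 53.7, 60.8 and 49.7 CPM. It was at 64.5, 62.4, 56.5 and 72.8 CPM in fl/del and at 51.6, 65.5, 61.7 and 67.4 CPM in fl/del Spo11-Cre. In each of these 2 groups, 3 of 4 libraries were above the wt/fl range, and the remaining library overlapped it. The log2 fold change was 0.038 ± 0.12, 0.22 ± 0.12 and 0.14 ± 0.12 (SE) in these 3 groups in turn, with edgeR adjusted p of 0.941, 0.610 and 0.742 and 95% intervals from -0.19 to 0.27, from -0.026 to 0.47 and from -0.10 to 0.39.

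The highest Pde3a values were in the fl/fl libraries. They were 74.9 and 58.7 CPM with Gdf9-Cre and 107 and 78.3 CPM with Zp3-Cre, so that 3 of these 4 were above every library of the Spo11-Cre background, of which the highest was at 72.8 CPM. The log2 fold change of both drivers together was 0.41 ± 0.13 (SE, 95% interval from 0.14 to 0.67), which edgeR did not call (adjusted p = 0.0799), and over 28 alternatives that kept both drivers the adjusted p ran from 0.0156 to 0.370 with 3 calls. With Zp3-Cre alone the log2 fold change was 0.63 ± 0.16 (SE, edgeR adjusted p = 0.0157), a call. With Gdf9-Cre alone it was 0.19 ± 0.16 (SE, edgeR adjusted p = 0.688). The Zp3-Cre call rests on 2 libraries that, at 7801470 and 8188483 counts, were among the shallowest, and driver, genotype and the separate set of libraries cannot be told apart.

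The difference between the drivers was therefore tested itself, in a comparison added after the values were seen. edgeR called 0.891% of all genes and 0 of the 10 in Zp3-Cre against Gdf9-Cre. DESeq2 called 381 of 23225 genes and 0 of the 10. At an unadjusted p under 0.05 in edgeR were 1659 of 23225 genes and 2 of the 10. These 2 were Pde3a, at a log2 fold change of 0.43 ± 0.19 (SE, edgeR adjusted p = 0.524), and Prkaca, at 1.52 ± 0.50 (SE, edgeR adjusted p = 0.183). Neither gene was shown to differ between the drivers.

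Prkaca (ENSMUSG00000005469, chr8:83972993-83996443) was the higher of the 2 catalytic PKA subunit genes in TPM in 21 of 21 libraries. Its level was 5.95, 7.93, 6.14 and 13.4 CPM in wt/fl and 6.25, 4.91, 5.42, 6.58 and 4.47 CPM in wt/fl Spo11-Cre. It was at 6.46, 4.59, 12.4 and 6.18 CPM in fl/del and at 5.97, 3.91, 7.44 and 9.73 CPM in fl/del Spo11-Cre. These 4 groups overlapped, and no comparison among them was called. With Gdf9-Cre it was at 2.602 and 3.15 CPM, from 28 and 29 counts, below each of the other 19 libraries, and with Zp3-Cre at 10.1 and 6.84 CPM, within the wt/fl range.

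With both drivers together, the log2 fold change of Prkaca was -0.85 ± 0.34 (SE, edgeR adjusted p = 0.203). With Gdf9-Cre alone it was -1.61 ± 0.45 (SE, edgeR adjusted p = 0.0491), just past the threshold, and with Zp3-Cre alone -0.089 ± 0.41 (SE, edgeR adjusted p = 0.996). These values are given because the Gdf9-Cre libraries were seen to stand low. The sum of 16 follicle markers was 7.72 and 20.5 CPM in these libraries, of which the first lay within the wt/fl range of 4.47 to 8.96 CPM. With Cyp19a1 and Nr5a2 included, the sum of all 18 was 86.0 and 115 CPM, within the wt/fl range of 81.6 to 126 CPM. The part of follicle RNA in the Prkaca level was not tested.

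Prkacb (ENSMUSG00000005034, chr3:146729574-146812990), the other catalytic subunit, was at 0.786 to 3.97 CPM over the 21 libraries, with group means of 1.88 to 3.27 CPM whose neighbours overlapped. Prkar1a (ENSMUSG00000020612, chr11:109649405-109669656) was the steadiest of the 10 genes. It ran from 77.6 to 103 CPM over the 21 libraries, a coefficient of variation of 7.57%, where counting alone would give 4.10%. Its group means lay between 88.1 and 94.3 CPM. The counting value was computed from the companion table and not from the all-exon counts, which were 1.93 to 1.96 times higher in the median gene. The reason for that factor is not given in the sources used here. The value takes each companion count as an independent read, which was not tested, so it may still be too small.

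**Figure D4:**
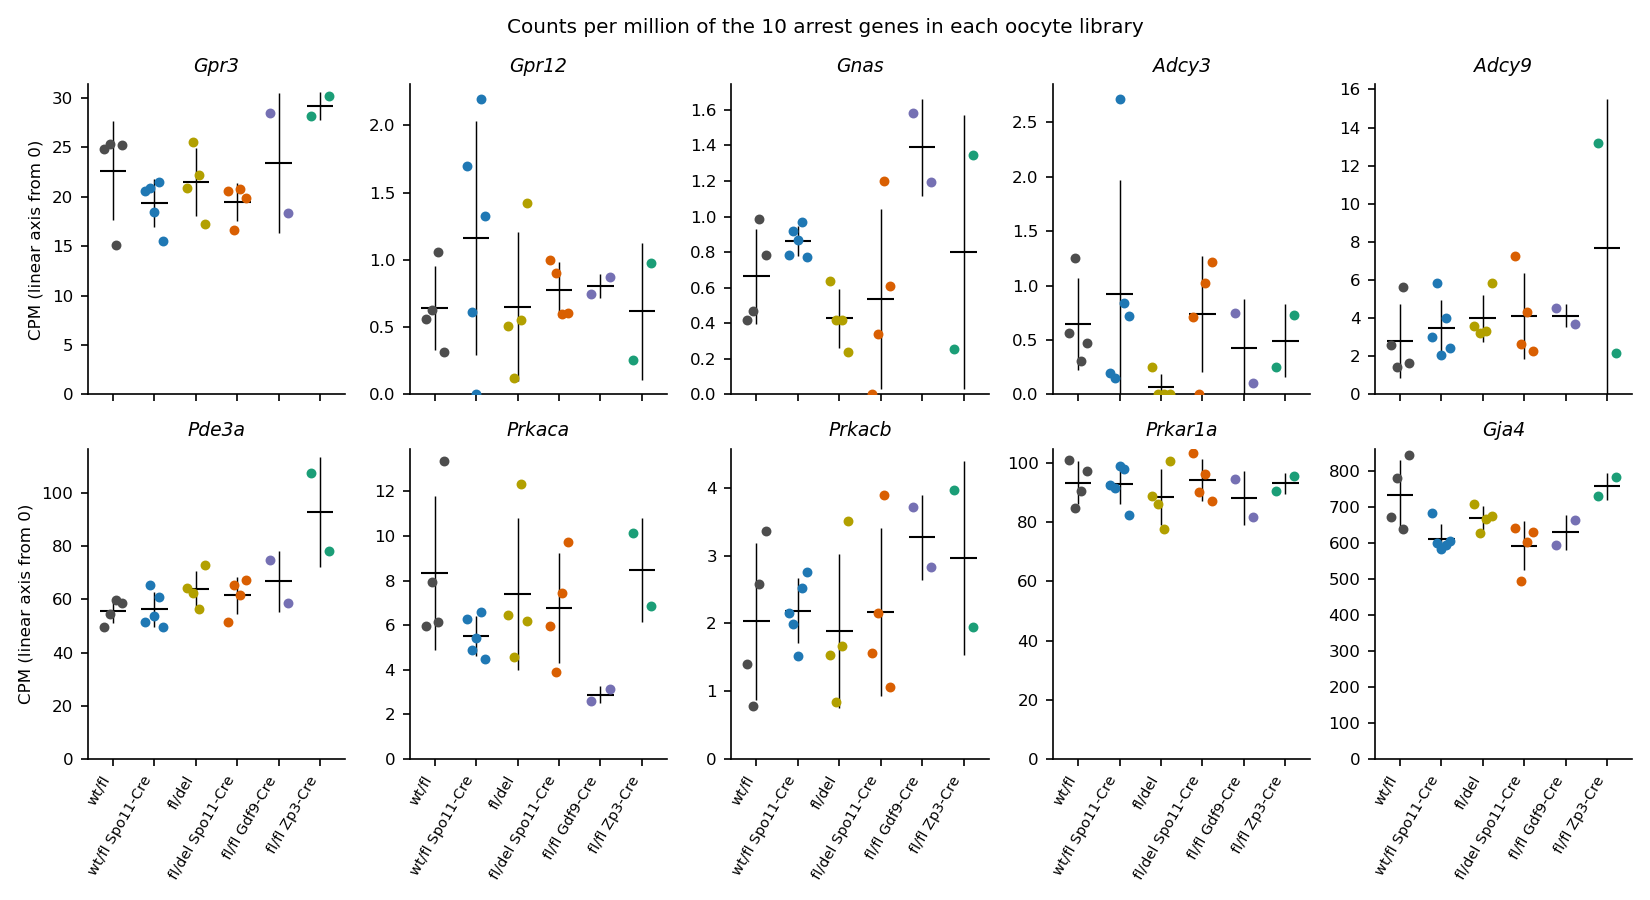
CPM of each of the 10 arrest genes in the 21 libraries (points, linear axes from 0), grouped by genotype and Cre driver, with the mean (bar) and SD (line, cut at 0). Prkar1a was even across groups, Pde3a was highest with Zp3-Cre, Prkaca lowest with Gdf9-Cre, and the wt/fl libraries of Gja4 reached above those with Spo11-Cre.

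Gja4 (ENSMUSG00000050234, chr4:127311421-127314039) encodes connexin 37, which forms the oocyte's gap junctions with the granulosa cells. It had the smallest unadjusted p among the 10 genes in the comparisons of the Spo11-Cre groups with wt/fl, and its values are given for that reason. In wt/fl it was at 672, 781, 639 and 843 CPM. With Spo11-Cre on these alleles it was at 681, 599, 581, 592 and 604 CPM, and 4 of these 5 libraries were below the wt/fl range. It was at 707, 627, 665 and 675 CPM in fl/del and at 640, 494, 602 and 631 CPM in fl/del Spo11-Cre, where 3 of 4 libraries were below the wt/fl range.

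The log2 fold change of Gja4 against wt/fl was -0.24 ± 0.082 in wt/fl Spo11-Cre and -0.32 ± 0.086 in fl/del Spo11-Cre (SE), and edgeR called neither (adjusted p = 0.114 and 0.104). It was -0.12 ± 0.086 (SE, edgeR adjusted p = 0.718) in fl/del without Cre. The 95% intervals, from -0.40 to -0.077 in wt/fl Spo11-Cre and from -0.49 to -0.14 in fl/del Spo11-Cre, excluded 0 before adjustment over all genes. The test of any difference among the 4 genotypes gave an edgeR adjusted p of 0.109. DESeq2 called Gja4 in all 3 tests, with adjusted p of 0.0464, 0.0380 and 0.0380. Over the 26 alternatives run for each, the adjusted p ran from 0.0464 to 0.427 with 2 calls in wt/fl Spo11-Cre and from 0.00977 to 0.515 with 3 calls in fl/del Spo11-Cre, always with a lower level than in wt/fl. The lowest of these, 0.00977, came from a block on replicate number, which pairs nothing that the labels state. With libraries of a shared name prefix summed, the test of any difference gave an edgeR adjusted p of 0.217, not a call.

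For Gja4 the interaction term was 0.043 ± 0.12 (SE, edgeR adjusted p = 0.969, 95% interval from -0.19 to 0.28). The names of the libraries without Cre all carry the letter A and those with Spo11-Cre another letter, whose meaning is not stated, so a handling step marked by that letter cannot be told apart from Cre. In the fl/fl libraries Gja4 was at 595 and 664 CPM with Gdf9-Cre and at 730 and 783 CPM with Zp3-Cre, with a log2 fold change of -0.18 ± 0.099 for both drivers together (SE, edgeR adjusted p = 0.415).

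Beyond the 10 genes, 88 others of the pathway were followed, of which 75 passed the filter on low counts in the Spo11-Cre background and 76 with the fl/fl libraries added. These covered G proteins, other cyclases and phosphodiesterases, PKA subunits and anchors, PKA targets, connexins and the cyclic GMP genes of the follicle. In the 6 comparisons of the Spo11-Cre background edgeR called 0 of the 75, beside shares of 0.0223% to 2.19% over all genes. Between 4 and 9 had an unadjusted p under 0.05, beside 1591 to 3358 of 22383 over all genes. DESeq2 called 1, 0, 0, 0, 1 and 0 in the order given above, beside 931, 21, 158, 14, 595 and 74 of 22383. The median log2 fold change of these genes against wt/fl was 0.014, 0.041 and 0.071 in wt/fl Spo11-Cre, fl/del and fl/del Spo11-Cre, beside 0.033, 0 and 0.012 over all genes tested. In the fl/fl comparison edgeR called 1 of 76 as higher and 0 as lower, beside 2.79% of all genes. The median log2 fold change of the 76 was 0.093, beside -0.033 over all genes tested. These counts are near the shares over all genes and are no result about the list.

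The gene called in the fl/fl comparison was Adcy2, a cyclase found mainly in nervous tissue. It had 0 counts in each wt/fl library, 0 and 61 counts with Gdf9-Cre and 121 and 59 counts with Zp3-Cre (edgeR adjusted p = 1.14e-04). Its level was 0 and 6.64 CPM with Gdf9-Cre and 15.5 and 7.21 CPM with Zp3-Cre, so 3 of the 4 fl/fl libraries were above wt/fl and 1 was not. Of the other 13 libraries, 2 had Adcy2 counts, at 10 in wt/fl Spo11-Cre and 4 in fl/del Spo11-Cre. Adcy2 therefore passed the filter of 3 libraries only through the fl/fl libraries in which it was high. It was not tested in the Spo11-Cre background. Its call is not independent of the filter and is given as a description of these libraries. With Zp3-Cre alone Adcy2 was called (edgeR adjusted p = 5.44e-05). Without the Gdf9-Cre library that had 61 counts the Gdf9-Cre group is at 0, as wt/fl is, and the call for both drivers together was lost (edgeR adjusted p = 1.00). DESeq2 gave no adjusted p for Adcy2.

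Finally, the genes whose log2(CPM + 1) over the 21 libraries was most like that of Gpr3 and Pde3a were listed, among 9478 genes with a mean of at least 5 CPM. For Gpr3 these were Kat7, Atg16l1 and Ubqln1, with Pearson r of 0.83, 0.81 and 0.80. For Pde3a they were Fbxo11, Kpnb1 and Slc7a11, with r of 0.90, 0.88 and 0.86. Within the 17 libraries of the Spo11-Cre background the values were lower, at 0.73, 0.74 and 0.74 for Gpr3 and at 0.71, 0.68 and 0.52 for Pde3a. The libraries share depth and amplification, and r is a description over libraries that fall into groups. Between Gpr3 and Pde3a themselves r was 0.41 over the 21 libraries and -0.16 over the 17.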

How the data were processed

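The labels and methods name fastp, HISAT2 2.2.1 and featureCounts 2.0.3 on GRCm38 for reads from SMART-Seq v4 cDNA, a kit that does not mark strand. The deposited tables hold raw counts per gene, and TPM values that the authors computed by a method not given in the sources used here. The TPM implied the annotated exonic length within 5% for 95.3% of 8580 genes. CPM was computed from the all-exon counts. edgeR 4.0.16 (quasi-likelihood test, TMM, genes counted in at least 3 libraries of the fit, Benjamini-Hochberg over all genes, threshold 0.05) was fitted to the 17 libraries of the Spo11-Cre background, and to all 21 for the fl/fl and driver comparisons. DESeq2 1.42.0 was the alternative. Intervals of 95% cover the spread between libraries. Limits from 0 counts (3 counts) cover counting error only and take each all-exon count as an independent read.

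All 10 genes were named. Fold changes were printed for called genes, and for Gpr3 and Pde3a against wt/fl, and other values are said to be given because they were seen. Of the 88 pathway genes, up to 3 called genes per direction with a mean count of at least 10 were named. The members and lists were chosen with earlier results of these data known. On simulated counts for each of the 7 planned comparisons, with 200 genes changed among 21973 to 22845, the fit recovered 42% to 59% of 2-fold and 69% to 82% of 4-fold changes, with 7 to 23 false calls. No pair of libraries in a group agreed within sampling noise (chi-square per degree of freedom of at least 5.27). Tables with Kif11 counted over exon 1 alone, and other TPM tables, were not used here.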

Additional observations from a re-analysis of the deposited data

Results flagged for a closer look

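Of 44 sets of a gene and a group tested for a library that stands apart from the rest, 5 held one by Dixon's test, where chance gives about 1 in 20. Gpr3 was at 15.2 CPM in wt/fl replicate 3, against 24.9 to 25.3 CPM in the other 3 wt/fl libraries. Adcy3 was at 2.71 CPM in wt/fl Spo11-Cre replicate 3, from 50 counts, against 0.153 to 0.838 CPM in the others of its group, and at 0.256 CPM in fl/del replicate 1, from 4 counts, against 0 in the others. With the others at 0, any count above 0 would have been flagged there, so that flag carries no information. Adcy9 was at 5.82 CPM in fl/del replicate 4 against 3.22 to 3.58 CPM, and Gja4 at 681 CPM in wt/fl Spo11-Cre replicate 1 against 581 to 604 CPM. Without wt/fl replicate 3, which was also the lowest of its group in Gja4 at 639 CPM, Gja4 was called in wt/fl Spo11-Cre against wt/fl (edgeR adjusted p = 0.0487). The causes of these values were not tested.

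Akap9, which encodes a large scaffold that anchors PKA at the centrosome and Golgi, differed between the fl/fl drivers. Its mean was 38.1 ± 7.32 CPM (SD, n = 2) with Zp3-Cre and 67.9 ± 2.38 CPM (SD, n = 2) with Gdf9-Cre, beside 52.6 ± 1.49 CPM (SD, n = 4) in wt/fl. The log2 fold change of Zp3-Cre against Gdf9-Cre was -0.87 ± 0.19 (SE, edgeR adjusted p = 0.00528), and DESeq2 called it too (adjusted p = 4.60e-05). It was the only gene of the 76 called by edgeR in that comparison, beside 0.891% of all genes. Without Zp3-Cre replicate 2 the log2 fold change was -0.73 ± 0.22 (SE, edgeR adjusted p = 0.0760), so the call was lost while the direction and most of the size remained.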

How the results depend on the processing

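Of the alternatives for the counts of called arrest genes, 178 left the count at 0 and 13 moved it to 1. The count was 1 with DESeq2 in both Spo11-Cre groups against wt/fl, for any difference among genotypes and in the fl/fl comparison. With no filter on low counts, and with the replicate block, it was 1 (Gja4) for any difference among genotypes and in fl/del Spo11-Cre against wt/fl, and it was 1 in the fl/fl comparison with Gdf9-Cre alone (Prkaca) and with Zp3-Cre alone (Pde3a). Leaving out each library in turn gave 0 to 1 in wt/fl Spo11-Cre against wt/fl (Gja4, without wt/fl replicate 3) and 0 to 1 in the fl/fl comparison (Pde3a, without Gdf9-Cre replicate 2 or Zp3-Cre replicate 2), and 0 elsewhere. For the wider list, DESeq2 called 1 in wt/fl Spo11-Cre against wt/fl, 1 for any difference and 3 in the fl/fl comparison, and leaving out libraries gave 0 to 1, 0 and 1 to 4, and 1 to 2 between the drivers. Gpr3 in fl/del changed sign over the omissions, from -0.20 to 0.040, as did Gpr3 in the fl/fl comparison, from -0.043 to 0.27 (-0.020 with Gdf9-Cre alone), and Pde3a in wt/fl Spo11-Cre, from -0.023 to 0.082, all not called. The cause of these changes was not tested.

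Over all genes, the number called depended more on the settings. Against the main values of 491, 5, 44, 8, 326, 23, 647 and 207, in the order of the report with the driver comparison last, the alternatives ran from 179 to 931, 1 to 96, 29 to 230, 3 to 39, 123 to 651, 2 to 138, 238 to 1353 and 127 to 398. Same-numbered libraries of different groups did not deviate together (correlation of -0.050 to 0.049 over 24 pairs), so the replicate block pairs nothing that the labels state. With the block, edgeR's adjusted p of Gja4 was 0.00977 in fl/del Spo11-Cre against wt/fl and 0.0143 for any difference, with no other of the 10 genes called. Over all genes the block called 96 in place of 5 in fl/del against wt/fl, 230 in place of 44 in fl/del Spo11-Cre against wt/fl and 559 in place of 326 for any difference. Single libraries moved these counts too, to 179 without wt/fl replicate 2 in the first comparison, 1 without fl/del replicate 3 in the second, 3 without wt/fl Spo11-Cre replicate 2 in the fourth, 1353 in the fl/fl comparison and 398 between drivers without Zp3-Cre replicate 2, and 127 between drivers without Gdf9-Cre replicate 2. Levels moved by over 1 SD in 9 cases, among them Gnas from 0.428 to 0.760 CPM in fl/del on the companion count table, and Gpr3 with Zp3-Cre from 29.2 to 27.3 CPM on TMM sizes, and by less in 491. At about 10 counts a library, Gpr12, Gnas and Adcy3 had wide intervals.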

Other observations

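Other genes around the arrest pathway were well expressed in wt/fl oocytes on the per-length scale. Rgs2, a regulator of G protein signalling, was at 927 ± 82.6 TPM and Wee2, the oocyte kinase that PKA turns on against CDK1, at 490 ± 22.9 TPM, while Cdc25b, the phosphatase with the opposite role, was at 12.2 ± 1.61 TPM (SD, n = 4 each). Of the 10 arrest genes, Gja4 alone had a higher mean TPM than Rgs2 and Wee2. In CPM Rgs2 was above Gja4, at means of 1371 and 734 in wt/fl. Among PKA anchors, Akap8l, Akap12 and Akap7 had the highest deposited TPM, at 47.6 ± 2.15, 46.8 ± 6.34 and 45.6 ± 4.19 TPM (SD, n = 4 each). In CPM their wt/fl means were 40.2, 123 and 81.4, with annotated exonic lengths of 5073, 6461 and 4375 bases. The first place of Akap8l therefore does not follow from its count over that length, and its rank is uncertain. Pkig, an inhibitor of PKA, was at 34.7 ± 1.79 TPM (SD, n = 4).

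The genes of the follicle's cyclic GMP supply had few counts. Npr2, the guanylyl cyclase of granulosa cells, had no count in 16 of 21 libraries, and Nppc, its ligand, none in 12 of 21. Prkg1, a kinase that cyclic GMP activates, was at 15.9 ± 1.33 TPM (SD, n = 4). These genes were picked for this paragraph after their values were seen.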
